A study of Mus musculus with 10 samples.

Results

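The epithelial keratins described here are 9 genes, Krt7, Krt8, Krt18, Krt19, Krt5, Krt14, Krt15, Krt17 and Krt80, out of 39017 gene rows in the count table of a mouse lung tumor series. They were picked by gene symbol, not by a rule on their measured values, though with earlier results of these data known. Each symbol matched 1 row. Of the 9 members, 4 are type II keratins (Krt7, Krt8, Krt5 and Krt80) and 5 are type I keratins (Krt18, Krt19, Krt14, Krt15 and Krt17). Their levels were compared across 10 RNA sequencing libraries, 5 from KP control tumors and 5 from KPG1 tumors, whose label reads Glut1KO. The question was how the epithelial filament genes stood in tumors with these labels.

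KP mice on the C57BL/6 background carried floxed Trp53 on both copies among other alleles, and KPG1 mice carried in addition floxed Slc2a1, which encodes the glucose transporter Glut1. The genotype label of the controls reads heterozygous (fl/wt), whereas the design text calls them Glut1-WT, and the study's methods name both kinds. Tumors were initiated in all mice with an adenovirus delivered through the trachea, in which the promoter of CC10, a secretory protein of airway club cells, drives Cre recombinase. Recombination is thereby limited to cells in which that promoter is active. Tumors were dissected 20 weeks and 1 day later, dissociated, and depleted of CD45-positive leukocytes on magnetic beads. All 5 controls were labelled male. KPG1-labelled replicates 1 to 3 carried the label female, the other two male, so genotype and sex cannot be told apart for those 3. A second number in the deposited names took 2 values among the controls (replicates 1, 2 and 5 shared one, replicates 3 and 4 the other) and 4 among the KPG1-labelled libraries (replicates 4 and 5 shared one). No label says what it stands for. If it marks the animal, libraries sharing a number are not independent, and p-values then measure in part the spread within animals.

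Libraries held between 35.3 and 49.8 M counts (M, mega). Levels are given as CPM (counts per M counts of the library after TMM scaling, which evens out differences in library composition), as mean ± SD over the 5 libraries of a group. The deleted gene went against the label in part: Slc2a1 stood at 73.2 to 118 CPM in controls, at 60.3, 42.5 and 34.6 CPM in KPG1-labelled replicates 1 to 3, and at 92.4 and 103 CPM in replicates 4 and 5, within the control range. Counts per gene do not show whether the deleted exons were present, and every direction below rests on the labels, hence the name KPG1-labelled. The fractions were epithelial and alveolar in their markers. Epcam, an epithelial adhesion protein, stood at 352 to 619 CPM, and 6 alveolar type 2 markers summed to 24083 to 67692 CPM. With limma, 0 of 15922 genes tested passed an adjusted p of 0.05 (0% called), 0 passed with the edgeR quasi-likelihood test, and 1223 (7.68%) had an unadjusted limma p under 0.05. DESeq2 called 210 genes (1.32%). These are bulk samples, so fewer cells of a type and less RNA per cell cannot be told apart in any of the values below.

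Keratins build the intermediate filaments of epithelial cells. Each filament is made of pairs of 1 type I and 1 type II keratin, and the pair in use marks the kind of epithelium. Krt8 and Krt18 are the founding pair of simple, single-layered epithelia, and Krt7 and Krt19 join them in ducts and airways. Krt5 pairs with Krt14 in basal cells of stratified and pseudostratified epithelia, including the basal cells of the trachea. Krt15 is a further basal type I keratin, Krt17 is induced in injured and rapidly dividing epithelium, and Krt80 is a type II keratin found near cell junctions. In lung repair, Krt8 marks a transitional state between alveolar type 2 and type 1 cells.

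All 9 genes are protein-coding and lie in the mouse keratin clusters (GRCm38 positions from GENCODE M21). On chromosome 15 lie Krt80 (101347444 to 101370162, minus strand), Krt7 (101411043 to 101430313, plus strand), Krt5 (101707070 to 101712898, minus strand), Krt8 (101996698 to 102004482, minus strand) and Krt18 (102028180 to 102032027, plus strand), the 1 type I member in the type II cluster. On chromosome 11, all on the minus strand, lie Krt15 (100131758 to 100135928), Krt19 (100140810 to 100148665), Krt14 (100203162 to 100207548) and Krt17 (100256217 to 100261029). Noncoding RNA genes on the opposite strand overlap Krt7, Krt8, Krt5 and Krt80 (77, 101, 129 and up to 263 shared exonic bases). None of these had a row with counts in the table, and the counting's use of strand is not given in the sources used here. Krt14 and Krt17 are near-identical in parts to Krt16, and Krt5 to Krt6a and Krt6b, which makes their counts uncertain wherever a read fits both copies.

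RefSeq promoter windows (GRCm38.p6, 250 bases upstream of the start) were found for 5 members. Those of the partner genes Krt5 and Krt14 are shown because both stood far above all other libraries in control replicate 1, and those of Krt8 and Krt18 because their levels moved together across libraries. The first is chr15:101712906-101713155 (minus strand), the second chr11:100206031-100206280 (minus strand), the third chr15:102004483-102004592 (minus strand) and the last chr15:102027966-102028179 (plus strand). The last 2 omit 140 and 36 bases that GENCODE places in the first exon. RefSeq and GENCODE differ in the start of all 5 members, most widely for Krt14 and Krt7. The Krt14 window therefore lies inside the longer GENCODE gene given above, outside its exons. All run 5′ to 3′, and capitals mark a match to the p53-family half-site.
Krt5: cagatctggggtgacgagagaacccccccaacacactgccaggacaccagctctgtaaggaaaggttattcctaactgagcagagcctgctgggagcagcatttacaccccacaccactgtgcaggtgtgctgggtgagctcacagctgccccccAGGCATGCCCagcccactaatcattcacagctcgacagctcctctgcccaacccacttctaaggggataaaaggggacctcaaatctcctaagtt
Krt14: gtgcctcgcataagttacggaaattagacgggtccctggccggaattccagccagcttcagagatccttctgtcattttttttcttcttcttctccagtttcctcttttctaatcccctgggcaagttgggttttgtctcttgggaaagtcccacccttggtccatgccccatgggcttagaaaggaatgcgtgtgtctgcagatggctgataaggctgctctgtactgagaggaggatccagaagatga
Krt8: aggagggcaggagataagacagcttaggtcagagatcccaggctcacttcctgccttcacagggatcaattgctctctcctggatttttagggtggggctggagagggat
Krt18: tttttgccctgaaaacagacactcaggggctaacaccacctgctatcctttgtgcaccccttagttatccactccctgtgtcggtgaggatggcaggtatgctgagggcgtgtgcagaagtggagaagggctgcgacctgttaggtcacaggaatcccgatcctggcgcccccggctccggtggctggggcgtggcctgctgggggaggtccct
The whole windows were searched on both strands for a TATA box (TATAAA), an AP-1 site (TGANTCA), a GC box (GGGCGG) and the p53-family half-site. The Krt5 window held 1 p53-family half-site, whose first base lies at -95 from the start and which overlaps no other motif, and none of the other 3. The Krt14, Krt8 and Krt18 windows held none of the 4. The Krt7 window, which lies inside the GENCODE gene, partly in its exons, and is not printed, held 4 GC boxes, at -141, -128, -56 and -24 from the RefSeq start. Of 32851 promoter windows of the same length, 7.13% held a p53-family half-site, 32.7% a GC box, 12.4% the TATA box and 6.75% the AP-1 site. These matches describe letters only and show neither binding nor its absence.

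Per kb of exon, the scale on which genes can be compared, the members fell into 4 abundant and 5 scarce genes. Krt18 was the most abundant, at 762 ± 250 CPM per kb over all libraries (SD, n = 10). Krt8 followed at 536 ± 239, Krt19 at 296 ± 149 and Krt7 at 158 ± 86.3 CPM per kb. This order, Krt18 above Krt8 above Krt19 above Krt7, was the same in 10 of 10 libraries on this length, although the ranges of neighbors overlapped between libraries. The scarce members were Krt5 at 15.8 ± 49.8, Krt14 at 8.76 ± 15.1, Krt80 at 2.47 ± 0.972, Krt15 at 1.28 ± 1.69 and Krt17 at 0.338 ± 0.422 CPM per kb (SD, n = 10). Among these the order was not fixed, as Krt5 exceeded Krt14 in 1 library (control replicate 1), Krt14 exceeded Krt80 in 7, and Krt80 exceeded Krt15, and Krt15 exceeded Krt17, in 9 of 10. The place of Krt7 depends on length: in CPM alone it had rank 1 of the members. Its exons together span 7049 bases, against 4094 in its principal transcript, on which it kept rank 4, at 272 ± 149 CPM per kb beside 348 ± 176 CPM per kb for Krt19. On that length, chosen after seeing the data, Krt8 exceeded Krt19, and Krt19 exceeded Krt7, in 9 of 10 libraries.

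The simple keratins showed no difference between the groups that exceeded the spread between libraries. Krt18 stood at 1176, 846, 1227, 1125 and 1105 CPM in control replicates 1 to 5 and at 809, 801, 778, 1995 and 1094 CPM in KPG1-labelled replicates 1 to 5. KPG1-labelled replicate 4 was the highest of all 10 libraries, the 3 female libraries were the lowest of all, and the groups overlapped through replicate 5. Both means were 1096 CPM, with an SD of 148 in controls and 519 in the KPG1-labelled libraries (n = 5 each). The log2 fold change was -0.09 (SE 0.25, 95% interval -0.64 to 0.47, limma adjusted p 0.952), and the 2-sided exact permutation p was 0.841.

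Krt8, the type II partner of Krt18, stood at 1007, 695, 1217, 831 and 1151 CPM in control replicates 1 to 5. It stood at 852, 595, 651, 2182 and 1312 CPM in KPG1-labelled replicates 1 to 5. The same replicate 4 was again the highest, replicate 5 was next, and female replicates 2 and 3 were the lowest, so the KPG1-labelled group lay on both sides of the controls. Means were 980 ± 218 CPM in controls and 1118 ± 658 CPM in the other group, a log2 fold change of 0.05 (SE 0.34, 95% interval -0.69 to 0.79, limma adjusted p 0.983, exact permutation p 0.913). The ratio of Krt8 to Krt18 per kb was 0.653 ± 0.0916 in controls and 0.723 ± 0.139 in the KPG1-labelled libraries (SD, n = 5 each), with ranges of 0.542 to 0.765 and 0.545 to 0.88. As raw counts, the ratio was 0.89 ± 0.124 and 0.984 ± 0.189. Type II keratins (Krt7 and Krt8) relative to type I (Krt18 and Krt19) gave 0.607 ± 0.0831 and 0.679 ± 0.0796 per kb. Per kb of exon, Krt18 exceeded Krt8 in all 10 libraries.

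Krt7, a simple type II keratin of ducts and airways, stood at 1414, 656, 835, 1259 and 847 CPM in control replicates 1 to 5 and at 1082, 504, 556, 2560 and 1404 CPM in KPG1-labelled replicates 1 to 5. Its means were 1002 ± 319 and 1221 ± 837 CPM, a log2 fold change of 0.09 (SE 0.42, 95% interval -0.84 to 1.02, limma adjusted p 0.976, exact permutation p 0.865). Krt19, the smallest keratin and a ductal and airway marker, stood at 887, 445, 401, 593 and 438 CPM in control replicates 1 to 5 and at 534, 176, 229, 1051 and 737 CPM in KPG1-labelled replicates 1 to 5. Female replicates 2 and 3 lay below every control for both genes, replicate 4 lay above every control, and replicate 1 lay within the control range. Krt19 averaged 553 ± 201 and 545 ± 364 CPM, a log2 fold change of -0.25 (SE 0.47, 95% interval -1.29 to 0.78, limma adjusted p 0.914, exact permutation p 0.635).

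Krt80, far scarcer, followed the same libraries. It stood at 16.5, 11.9, 13.1, 16.5 and 17.7 CPM in control replicates 1 to 5 and at 18.3, 7.13, 7.39, 27.1 and 22.3 CPM in KPG1-labelled replicates 1 to 5. Means were 15.2 ± 2.48 and 16.4 ± 8.93 CPM, a log2 fold change of -0.10 (SE 0.37, 95% interval -0.91 to 0.72, limma adjusted p 0.965, exact permutation p 0.865). The intervals of these 5 genes include changes in both directions, so the data do not show that the groups were alike.

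**Figure D1:**
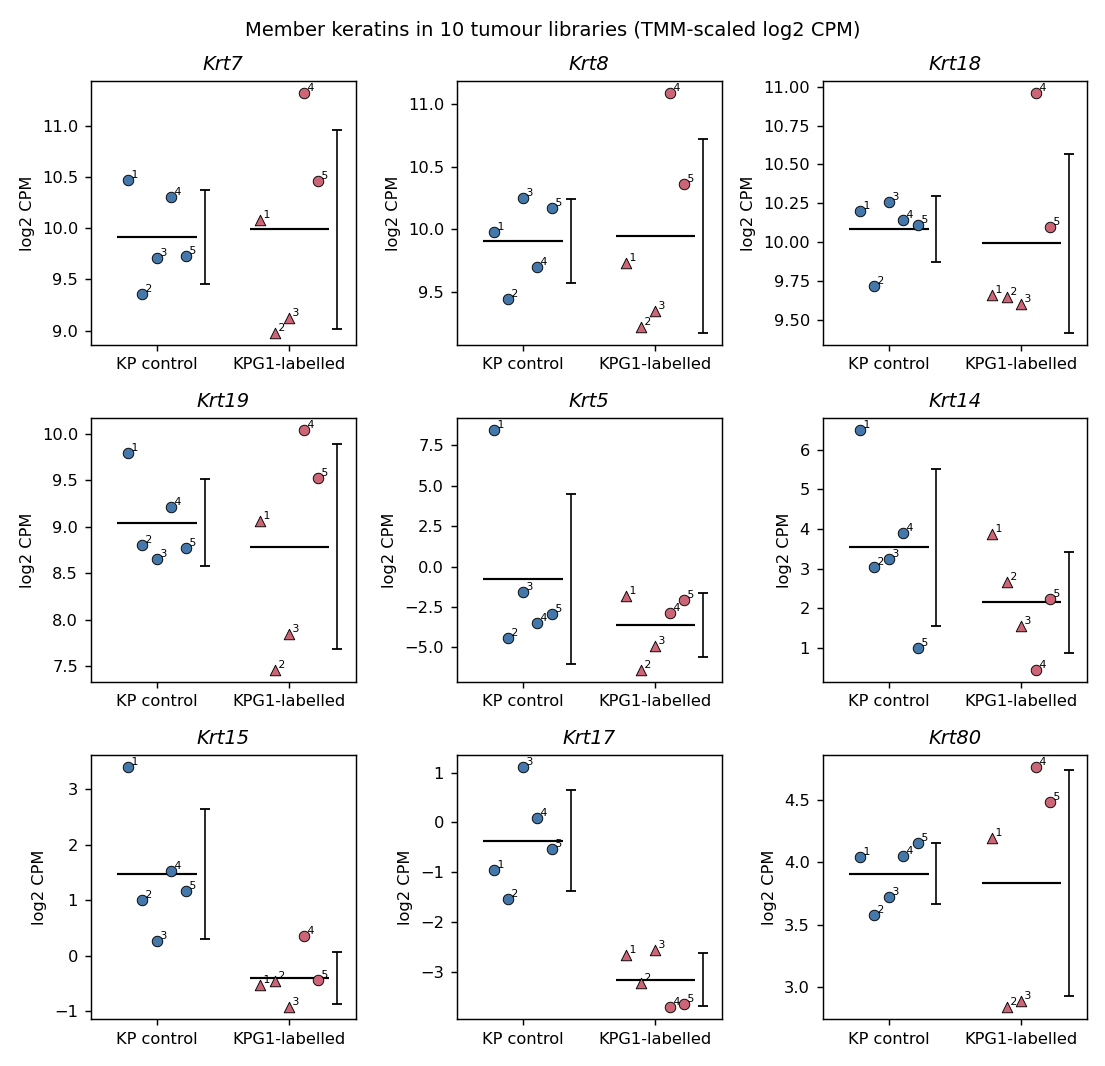
TMM-scaled log2 CPM (y axis, log scale, its range set per gene) of the 9 member keratins in the 5 KP control libraries (blue) and the 5 KPG1-labelled libraries (red). Each point is 1 library with its replicate number, circles are male and triangles female, horizontal lines are group means and bars the SD. Krt5 and Krt14 are highest in control replicate 1, and Krt7, Krt8, Krt18, Krt19 and Krt80 in KPG1-labelled replicate 4.

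Within the KPG1-labelled group, the 2 male libraries exceeded all 3 female libraries in Krt7, Krt8, Krt18, Krt19 and Krt80. This held for 20.3% of the 15922 genes tested, and the reverse for 20.6%. Krt8 ranged from 595 to 852 CPM in the female libraries and from 1312 to 2182 CPM in the male ones. The male KPG1-labelled libraries against the male controls gave log2 fold changes of 0.98 for Krt7, 0.82 for Krt8, 0.45 for Krt18, 0.74 for Krt19 and 0.71 for Krt80. The female libraries against the same controls gave -0.52, -0.47, -0.45, -0.92 and -0.59 in that order. No member passed the threshold in either limma fit, and the difference between the sexes was not tested. Sex and the level of Slc2a1 split this group in the same way, replicates 4 and 5 share the second number of their names, and 8 dissociation stress genes summed to 4141, 4694 and 5007 CPM in replicates 1 to 3 and to 3192 and 2758 CPM in replicates 4 and 5, the 2 lowest of all libraries. These cannot be told apart. In 5 members the highest library was KPG1-labelled replicate 4, which was the highest library for 12.4% of the genes tested.

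**Figure D2:**
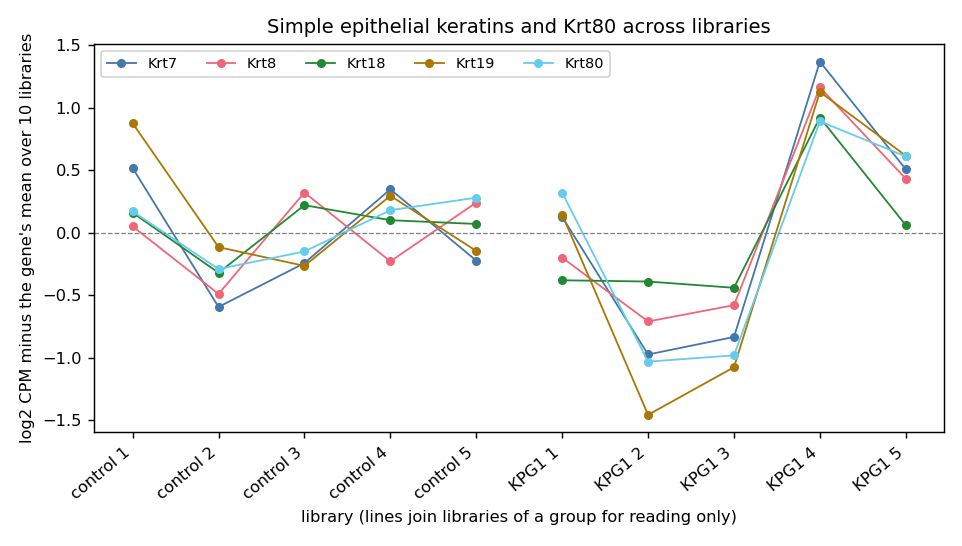
Log2 CPM of Krt7, Krt8, Krt18, Krt19 and Krt80 in each library (x axis) minus the gene's own mean over the 10 libraries (y axis, log2 units). Lines join libraries of a group for reading only. All 5 genes lie above their means in KPG1-labelled replicates 4 and 5 and below them in replicates 2 and 3.

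Across the 10 libraries, the simple keratins and Krt80 were correlated in log2 CPM, as a description over libraries that share their dissociation and scaling. Pearson's r was 0.92 between Krt8 and Krt18, 0.94 between Krt7 and Krt19, and 0.92 between Krt19 and Krt80 (n = 10). Only 8 of 12581 other genes were at least as like Krt8 as Krt18 was (0.0636%), and 16 were at least as like Krt7 as Krt19 was (0.127%). Without control replicate 1 these values were 0.93, 0.94 and 0.96, and with group means removed 0.93, 0.96 and 0.93. The correlation of Krt8 with Krt14 was -0.32, and -0.52 without control replicate 1. Between Krt5 and Krt14 it was 0.71, which dropped to 0.10 without control replicate 1, and between Krt5 and Krt15 it was 0.75, which dropped to 0.13.

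The genes most like each member were named outside the keratins chosen here. For Krt7 they were Clptm1, Cib1 and Lgals3 (r of 0.966, 0.961 and 0.958, n = 10 libraries), and for Krt19 they were Sdcbp2, Wsb2 and again Lgals3 (0.971, 0.969 and 0.964), where Lgals3 encodes galectin-3, a sugar-binding protein of epithelia and macrophages. For Krt8 they were Gtf3c1, Nap1l4 and Nr2f2 (0.966, 0.965 and 0.962), and for Krt18 Jrk, Tmem184b and Pacsin2 (0.95, 0.94 and 0.94). The nearest to Krt80 were Cdipt, Psmd8 and Them6 (0.978, 0.965 and 0.963). Krt14 was most like Cnksr3 and the keratin Krt4 (0.964 and 0.947). Krt14 and Krt4 were both highest in control replicate 1 (89.6 and 193 CPM), and r without that library was not computed for any gene named here. Krt15 was most like the chemokine gene Cxcl1, the hemidesmosomal integrin gene Itgb4 and Mrps6 (0.958, 0.943 and 0.931). Krt17 was most like Abt1, Tcea3 and Sap30bp (0.943, 0.92 and 0.916). With 12581 genes compared over 10 libraries, the highest values are high for any gene.

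Krt5, the type II keratin of basal cells, was a gene of 1 library. It stood at 346 CPM (13680 counts) in control replicate 1, and at 0.0371, 0.321, 0.0763 and 0.121 CPM in control replicates 2 to 5. In KPG1-labelled replicates 1 to 5 it stood at 0.268, 0, 0.0225, 0.123 and 0.226 CPM. Outside control replicate 1 no library held more than 13 counts, and KPG1-labelled replicate 2 held 0, which allows up to 0.0713 CPM at 3 counts. Per depth, the level in control replicate 1 was 2682 times the pooled level of the other 9 libraries, which held 49 counts in all (95% interval 2028 to 3627, which covers counting error only). Krt5 had too few counts in most libraries to pass the filter and was not tested with limma. The exact permutation p of its log2 CPM was 0.333. Without control replicate 1 the controls averaged 0.139 ± 0.126 CPM (SD, n = 4), beside 0.128 ± 0.119 CPM in the KPG1-labelled libraries (SD, n = 5).

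Krt14, the type I partner of Krt5, stood at 89.6, 8.2, 9.48, 14.9 and 1.98 CPM in control replicates 1 to 5. It stood at 14.5, 6.3, 2.94, 1.35 and 4.66 CPM in KPG1-labelled replicates 1 to 5. Unlike Krt5 it was counted in every library, with at least 44 counts, and outside control replicate 1 the groups shared most of their range. Per depth, its level in control replicate 1 was 12.4 times the pooled level of the other 9 (95% interval 11.8 to 13.1, counting error only). Means were 24.8 ± 36.5 and 5.96 ± 5.14 CPM, a log2 fold change of -1.31 (SE 0.98, limma adjusted p 0.773, exact permutation p 0.222). Without control replicate 1 the log2 fold change was -0.61 (limma adjusted p 0.868) and the control mean 8.64 ± 5.31 CPM (SD, n = 4).

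Several other basal and squamous genes were highest in the same library, whereas Il33 of the basal list was not, at 197 CPM there and 144 to 555 CPM elsewhere. Trp63, the p53-family transcription factor that defines basal cells, stood at 90.2 CPM in control replicate 1 and at 0.657 to 12.5 CPM elsewhere. Ngfr, a receptor of basal cells, stood at 4.35 CPM against at most 0.346 CPM, and Dsg3, a desmosomal cadherin of stratified epithelium, at 26.8 CPM against at most 2.06 CPM. Sox2, an airway transcription factor, ranged from 14.1 to 36.7 CPM in the other libraries and stood at 44.6 CPM there. Of 19 other keratins with at least 10 counts in a library, 11 were highest in control replicate 1, which was the highest library for 10.4% of 18049 genes with such counts. By 5-fold or more above every other library, 64 of those genes (0.355%) stood out there, beside 4 to 79 in the other control libraries and 7 to 18 in the KPG1-labelled ones. Among the 64 were the members Krt5 and Krt14 and 5 other keratins. These 5 keratins were named after their values were seen. Krt6a stood at 163 CPM against at most 4.6, Krt6b at 10.6 against 0.716, Krt16 at 7.14 against 0.585, Krt4 at 193 against 15.9, and Krt13 at 5.39 against 1.02. Krt6a, Krt6b and Krt16 are keratins of activated and squamous epithelium, and Krt4 and Krt13 the pair of mucosal stratified epithelium. Krt20, also named after its values were seen and known from gut and urothelial epithelium, was high in 2 libraries instead, at 213 CPM in control replicate 1 and 284 CPM in KPG1-labelled replicate 4, against 6.56 to 48.6 CPM elsewhere. Whether these levels come from airway tissue in the dissection or from tumor cells was not tested. In that library, 5 club cell markers summed to 9954 CPM (range of the other controls 1768 to 9094) and 6 ciliated cell markers to 357 CPM (other controls 333 to 612). The simple keratins made up 90.2% of the summed member levels per kb there and between 99.2% and 99.8% in the other libraries.

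**Figure D3:**
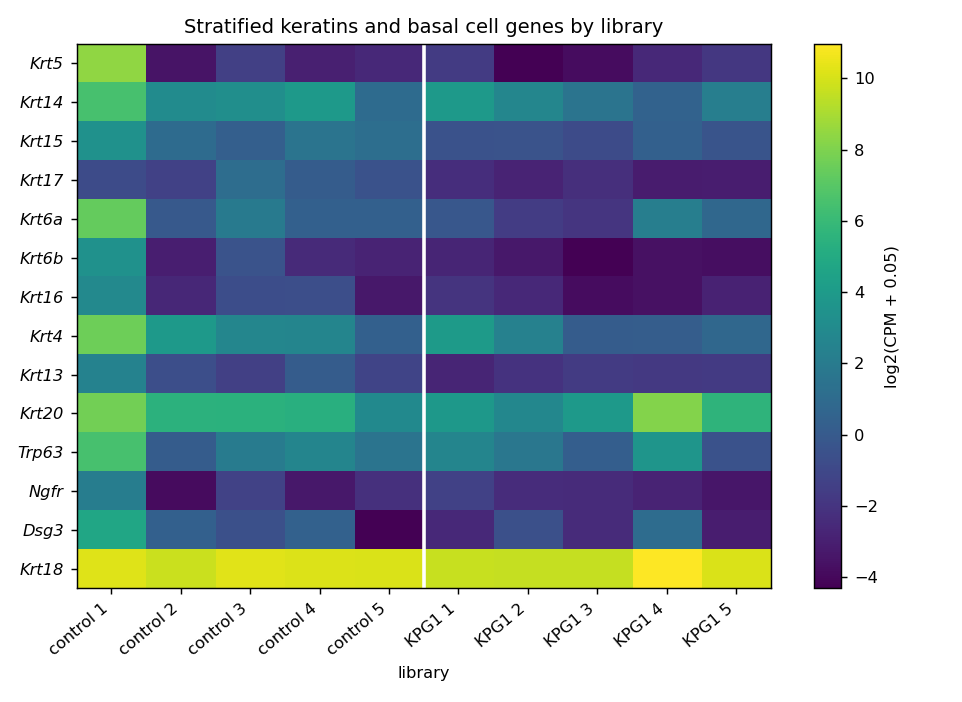
Heat map of log2(CPM + 0.05) (color) for Krt5, Krt14, Krt15 and Krt17, further stratified keratins, the basal cell genes Trp63, Ngfr and Dsg3, and Krt18 for scale, in each of the 10 libraries (columns, the white line parts the groups). Control replicate 1 stands out in Krt5 (346 CPM), Krt6a (163 CPM) and Krt4 (193 CPM).

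Krt15, a basal type I keratin, stood at 10.5, 1.99, 1.19, 2.87 and 2.24 CPM in control replicates 1 to 5 (48 to 414 counts). It stood at 0.682, 0.713, 0.516, 1.26 and 0.725 CPM in KPG1-labelled replicates 1 to 5 (23 to 41 counts). All but 1 of the KPG1-labelled libraries lay below every control, and the exception, replicate 4 at 1.26 CPM, exceeded control replicate 3 alone. Means were 3.75 ± 3.81 and 0.779 ± 0.28 CPM, a log2 fold change of -1.87 (SE 0.56, 95% interval -3.11 to -0.63). This did not pass the threshold with limma (unadjusted p 0.00681, adjusted p 0.449). By exact permutation, with all libraries taken as independent, p was 0.0159. DESeq2 placed it past the threshold, with a log2 fold change of -2.26 and an adjusted p of 0.0126. Without control replicate 1 the limma value was -1.41 (adjusted p 0.433), and the control mean 2.07 ± 0.699 CPM (SD, n = 4). The male and the female KPG1-labelled libraries gave -1.53 and -2.09 against the controls.

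Krt17, a type I keratin of injured epithelium, had the lowest mean level of the members over all libraries. Krt5 stood below it in control replicates 2 to 5 and in KPG1-labelled replicates 2 and 3. Krt17 stood at 0.506, 0.334, 2.15, 1.04 and 0.675 CPM in control replicates 1 to 5 (18 to 87 counts). In KPG1-labelled replicates 1 to 5 it stood at 0.146, 0.0951, 0.157, 0.0613 and 0.0679 CPM (2 to 7 counts). The groups did not overlap, which holds for 1.85% of the genes tested in either direction and 1.06% in this one. Means were 0.941 ± 0.724 and 0.106 ± 0.0441 CPM, a log2 fold change of -2.77 (SE 0.56, 95% interval -4.00 to -1.54, limma unadjusted p 0.00043, adjusted p 0.298). The exact permutation p was 0.00794, the smallest that 5 against 5 libraries allow if all are independent. By summed counts the controls were 8.4-fold higher (194 against 22 counts scaled to depth, 95% interval 5.39 to 13.7, counting error only). DESeq2 placed it past the threshold with a log2 fold change of -3.14 and an adjusted p of 0.0013. Krt17 passed the filter on low counts through the controls alone, since no KPG1-labelled library held 10 counts. A gene that enters the test this way had to differ, so its difference says nothing about the members as a set. The highest control for Krt17 was replicate 3, whereas control replicate 1 stood at 0.506 CPM, in contrast to Krt5, Krt14 and Krt15. The male and the female KPG1-labelled libraries gave -3.28 and -2.41.

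**Figure D4:**
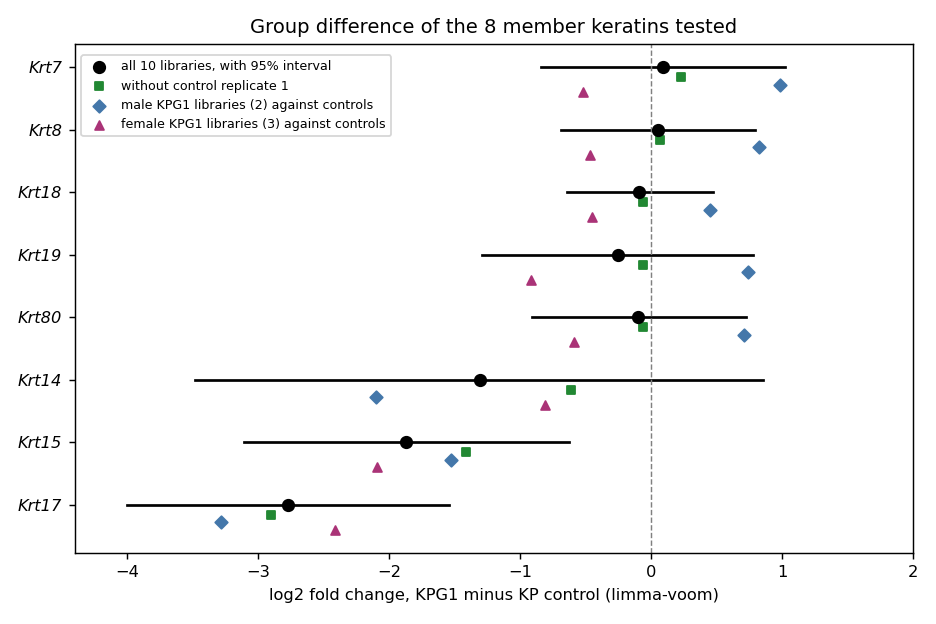
Log2 fold change, KPG1-labelled libraries minus KP control (x axis), of the 8 members tested with limma, one gene per line. Black points are the fit on all 10 libraries with its 95% interval, and colored points the fits without control replicate 1, with the 2 male and with the 3 female KPG1-labelled libraries. The intervals of Krt15 (-3.11 to -0.63) and Krt17 (-4.00 to -1.54) lie below 0 before adjustment, and those of the other 6 genes span 0.

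Of the 9 members, 8 were tested and 0 passed the threshold with limma. The log2 fold changes of Krt7 and Krt8 were above 0 and those of the other 6 below 0. Over all genes tested, 7849 were above and 8073 below, with a median of -0.00492. The 6 include Krt17, which passed the filter through the controls alone and so does not count toward the members as a set. With sex as a covariate or with male libraries only, the log2 fold changes of Krt18, Krt19 and Krt80 were above 0 too. All controls were male, so both fits rest on the same male libraries. With the female KPG1-labelled libraries alone, those of Krt7 and Krt8 were below 0.

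The genes around the keratins were read from lists of related genes in the same limma fit, in which 0 genes of any list passed the threshold. Of 42 other keratin rows 10 had enough counts to be tested, 2 higher and 8 lower. Their median log2 fold change was -0.28 (-0.11 without control replicate 1). Among them Krt13 stood between 0.321 and 5.39 CPM in controls and between 0.0974 and 0.269 CPM in the KPG1-labelled libraries, with no overlap, a log2 fold change of -1.98 and a limma adjusted p of 0.591 (DESeq2 adjusted p 0.0355). Krt79, a keratin of hair follicle and gland ducts, had a log2 fold change of 0.89 (limma adjusted p 0.616, DESeq2 adjusted p 0.514) and Krt23 one of -0.32. Intermediate filament genes outside the keratins (9 tested, 3 higher and 6 lower) had a median of -0.27, which was 0.02 without control replicate 3. The 3 with the smallest p there were Lmnb2 of the nuclear lamina, Synm and Prph, with log2 fold changes of -0.40, 0.53 and -0.81.

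Junction genes anchor keratin filaments to the membrane. Desmosome genes, which join the filaments of neighboring cells (14 tested, 5 higher and 9 lower), had a median log2 fold change of -0.05. This median was -0.14 without KPG1-labelled replicate 4 and -0.0 without KPG1-labelled replicate 5. The 3 desmosome genes with the smallest p were Dsc3 at 2.37, Pkp4 at -0.37 and Perp at -0.64. Desmoplakin (Dsp), which binds keratin filaments directly, was chosen outside the rule and stood at 262 ± 48.9 and 256 ± 40 CPM (SD, n = 5 each). Hemidesmosome genes, which tie the filaments to the basement membrane (8 tested, 2 higher and 6 lower), had a median of -0.29, and of -0.10 without control replicate 1. Itgb4, the integrin beta 4 subunit that binds plectin, averaged 148 ± 64.9 CPM in controls against 75.5 ± 15.6 CPM, without overlap, a log2 fold change of -0.91 (SE 0.25, limma adjusted p 0.419, DESeq2 adjusted p 0.0388). Its partner Itga6 had a log2 fold change of -0.36 and Lamb3, a chain of laminin-332, one of 0.57 (DESeq2 adjusted p 0.265).

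Genes of general epithelial identity were close to 0 as a list (16 tested, 7 higher and 9 lower, median log2 fold change -0.04, and 0.06 with sex as a covariate). Among those with the smallest p were Ovol1 at -0.56 and Prss8 at 0.27. Transcription factors known to act on keratin genes (14 tested, 4 higher and 10 lower) had a median of -0.25, and of -0.08 without control replicate 1. Of these 4 had an unadjusted limma p under 0.05, all lower, as had 4.02% of all genes tested in this direction. Klf4, a factor of epithelial differentiation and stress, averaged 164 ± 44.9 CPM in controls against 84 ± 10.7 CPM (log2 fold change -0.93, limma adjusted p 0.314, DESeq2 adjusted p 0.00224). Jun, an AP-1 subunit, stood at 824 ± 153 and 496 ± 106 CPM without overlap (log2 fold change -0.74, limma adjusted p 0.363, DESeq2 adjusted p 0.0241), and Fosl1, its partner, had a log2 fold change of -1.28 (limma adjusted p 0.419, DESeq2 adjusted p 0.205). Jun, Junb and Fos are also on the dissociation stress list.

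Genes of the Krt8-high transitional state of alveolar repair (15 tested, 4 higher and 11 lower) had a median log2 fold change of -0.29, and of -0.09 without control replicate 1. The direction turned with sex as a covariate and with male libraries only (0.12 each), fits that both draw the group difference from the same male libraries. The median was -0.60 with the female KPG1-labelled libraries alone. The lowest p belonged to Ctgf, a matrix protein gene, averaging 108 ± 38.3 CPM in controls against 43.2 ± 17.9 CPM (log2 fold change -1.35, limma adjusted p 0.363, DESeq2 adjusted p 0.0146). Sfn and the claudin gene Cldn4 followed at -1.22 and -1.11 (limma adjusted p 0.449 each, DESeq2 adjusted p 0.0864 and 0.195). Krt8 itself, for which the state is named, had a log2 fold change of 0.05. Proteins that bind or modify keratins (10 tested, 7 higher and 3 lower) had a median of 0.11. This median was 0.05 without control replicate 3 and 0.02 with the female KPG1-labelled libraries alone. Ywhae at -0.15 and Tchp at -0.25 were among those with the smallest p.

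Markers of other cell types were read beside these values, and their part in the results was not tested. Among the markers fitted, 0 had a limma adjusted p under 0.05, so the signs and sums below only describe levels. Genes of dissociation stress were lower by sign in the KPG1-labelled libraries in 8 of 8 (median log2 fold change -0.48), with sums of 4861 to 5865 CPM in controls and 2758 to 5007 CPM in the other group, and 3 of the 8 did not overlap, as did 1.06% of all genes tested in this direction. Ciliated cell markers were lower by sign in 6 of 6 (median -0.83, sums of 333 to 612 and 213 to 362 CPM), and Foxj1, which defines ciliated cells, ranged from 1.74 to 54.9 CPM in controls and from 1.2 to 7.13 CPM in the other group. Club cell markers were lower in 4 of 5 (median -0.67, sums of 1768 to 9954 and 1144 to 6757 CPM, Scgb1a1 at 1457 to 8732 and 704 to 4814 CPM). Mesothelial cells also use simple keratins. Of their 6 markers Msln, the first of the list, ranged from 54.7 to 348 CPM in controls and from 66.6 to 186 CPM in the other group, whereas Upk3b was at most 3.51 CPM, Upk1b at most 1.74 CPM, Lrrn4 at most 0.65 CPM, Wt1 at most 0.543 CPM and Calb2 at most 0.0509 CPM. Endothelial markers were higher by sign in 6 of 6 (median 0.64, sums of 96.6 to 348 and 146 to 472 CPM). Immune markers summed to 978 to 11345 CPM in controls and 1955 to 7896 CPM in the KPG1-labelled libraries, nearly all of it Lyz2 (954 to 11317 and 1916 to 7851 CPM), which alveolar type 2 cells also express. Csf1r, a macrophage receptor, stood at 3.82 to 5.45 and 5.21 to 12.5 CPM, and Ptprc, the gene of CD45, was higher without overlap, at 2.3 to 3.26 and 5.05 to 10.1 CPM. Fibroblast markers (83.6 to 352 and 51.2 to 398 CPM), alveolar type 1 markers (1042 to 1954 and 1184 to 2351 CPM) and proliferation genes (180 to 409 and 167 to 293 CPM) overlapped widely. The basal list without the members summed to 153 to 481 and 206 to 557 CPM, most of it Il33, which alveolar type 2 cells also express, except in control replicate 1 (481 CPM), where Il33 stood at 197 CPM, Krt6a at 163 CPM, Trp63 at 90.2 CPM and Dsg3 at 26.8 CPM. In KPG1-labelled replicate 4, where the simple keratins were highest, alveolar type 2 markers summed to 58414 CPM, proliferation genes to 167 CPM and dissociation stress genes to 3192 CPM.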

How the data were processed

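Polyadenylated RNA of CD45-negative lung tumor fractions was sequenced in 10 libraries. Per the submitters' processing notes and the study's methods, the authors demultiplexed with bcl2fastq, trimmed adapters with cutadapt (1.4.2 in the notes), aligned reads of stranded libraries to mm10 with HISAT2 and counted them per gene with featureCounts (1.4.4). The deposited values analysed are raw counts per Ensembl gene, 1 file per library, and the 10 columns of a deposited table with gene symbols equal these files row by row. A further deposited table of log2 values, scaled by the authors, was not used. Exon lengths and positions came from GENCODE M21, which held 37693 of 39017 identifiers (96.6%). A level per kb uses the union of a gene's exons.

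R 4.3.3 was used. Low counts were removed with filterByExpr of edgeR 4.0.16 (minimum count 10, minimum total 15). TMM factors, voom weights (prior count 0.5) and a limma 3.58.1 model with group as its single term followed, as the study names these tools and states no other term. P-values were adjusted by Benjamini-Hochberg over the 15922 genes tested, with a threshold of 0.05. Single members were also compared by a 2-sided exact permutation test of mean log2 CPM over the 252 assignments of 10 libraries to 5 and 5. That test takes the libraries as independent and does not use the second number of their names. Intervals of count ratios are 95% exact intervals and cover counting error only, and a floor is the level of 3 counts. The limma step was tested on simulated data. Groups and sexes came from the labels. The members, the related and marker lists and the tests were chosen with earlier results of these data known. Named genes are every member, the 3 genes of smallest limma p in each related list, the 3 genes with mean log2 CPM of at least 1 most correlated with each tested member, and defining markers. Some genes that this rule names are not reported here. The 21 alternatives included edgeR quasi-likelihood, DESeq2 1.42.0, library totals in place of TMM, other filters, sample weights, sex, the name number, a replicate block and leaving out each library.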

Additional observations from a re-analysis of the deposited data

Results flagged for a closer look

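Each member and 2 keratin ratios were taken in each group, which gave 22 sets of 5 values. In 5 sets, a library's gap to its nearest neighbor exceeded 0.71 of the set's range. Independent, normally spread values pass this limit in about 1 in 20 sets. Here the member levels were CPM without a log transformation, and the sets share libraries and hold correlated genes. The count of 5 is therefore no measure of an excess over that rate. In control replicate 1, Krt5 stood at 346 CPM where the other controls had 0.0371 to 0.321 CPM. Krt14 stood at 89.6 CPM in the same library, beside 1.98 to 14.9 CPM in the other controls, and Krt15 at 10.5 CPM, beside 1.19 to 2.87 CPM. In KPG1-labelled replicate 4, Krt18 stood at 1995 CPM where the rest of its group had 778 to 1094 CPM, and Krt15 at 1.26 CPM where they had 0.516 to 0.725 CPM. What sets these libraries apart was not tested.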

How the results depend on the processing

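The count of members past the threshold was 0 in all alternatives but DESeq2, where it was 2 of 8 (Krt15 at -2.26 and Krt17 at -3.14). DESeq2 called 1.32% of all genes tested, and 0.641% as lower. Krt17 passed the filter through the controls alone, so it does not count toward the members as a set. Over all genes it was 0 in the limma fit and 210 with DESeq2, 9 with the female KPG1-labelled libraries alone, 3 with sex as a covariate, 2 with libraries summed by name number, 1 with male libraries only, and 0 to 1 when a library was left out (1 without control replicate 3). Krt14, Krt15 and Krt17 were lower in every fit that held them, and Krt15, Krt17 and Krt80 had too low a level for the filter of 20 TPM. The signs of Krt7, Krt8, Krt18, Krt19 and Krt80 changed in some fits. Krt7 and Krt8 became -0.09 and -0.06 with sample weights, -0.52 and -0.47 with female libraries and -0.18 and -0.17 with summed libraries. Krt18, Krt19 and Krt80 became 0.45, 0.74 and 0.71, both with sex as a covariate and with male libraries only. As all controls were male, both fits take the group difference from the male libraries alone, so their agreement was fixed in advance. Krt18 was 0.01 with DESeq2, and Krt80 0.12 with DESeq2 and with edgeR. The cause was not tested. Leaving out each library in turn gave -0.26 to 0.34 for Krt7, -0.25 to 0.23 for Krt8, -0.34 to 0.01 for Krt18, -0.58 to 0.08 for Krt19, -0.30 to 0.15 for Krt80, -1.93 to -0.61 for Krt14, -2.16 to -1.41 for Krt15 and -3.08 to -2.40 for Krt17. Krt5 was fitted in 5 alternatives, from -6.66 (summed libraries) to -1.52 (male only). The principal transcript length was chosen after seeing the data.

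Replicate numbers share only a number: same-numbered deviations correlated from -0.132 to 0.197, and no library correlated best with its own number. With the replicate block the calls stayed at 0, and the log2 fold changes were 0.05 for Krt7, 0.03 for Krt8, -0.10 for Krt18, -0.29 for Krt19, 0.03 for Krt80, -1.74 for Krt14, -2.01 for Krt15 and -2.85 for Krt17. Depth limits Krt17 and Krt5, with at most 7 and 11 counts in KPG1-labelled libraries.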
